A study of Mus musculus with 4 samples.

Results

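Fatty acid oxidation in the kidney was followed through 8 genes linked to the nuclear receptor PPAR-alpha: Ppara itself, the oxidation genes Cpt1a, Acadm and Ehhadh, the fuel switch gene Pdk4, and the cytochrome P450 genes Cyp4a14, Cyp4a10 and Cyp4b1. The files listed 54532 genes, of which these 8 were chosen by name from what is known of PPAR-alpha, with earlier results of the same data in view: Cyp4a14 had drawn attention because its level split the libraries across genotypes. The levels of Cyp4a14 are therefore given as a description, with no test. All mice were female C57BL/6J animals that received an intraperitoneal dose of 500 µL of pristane at 8 weeks of age, a mineral oil component used to bring on a lupus-like disease, and their kidneys were taken 8 months later. The WT group held 2 libraries with an intact Zbp1 gene, and the Zbp1-KO group held 2 libraries from mice whose Zbp1, a sensor of Z-form nucleic acids, had been deleted by CRISPR-Cas9 in every cell. Because both genotypes carried the pristane treatment, and no uninjected kidney was analysed here, each difference is one between genotypes after pristane.

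The proximal tubule of the kidney draws most of its energy from fatty acids. PPAR-alpha pairs with a retinoid X receptor, binds fatty acids or their derivatives, and raises transcription of genes that import fatty acids into mitochondria, oxidise them in mitochondria and peroxisomes, and hydroxylate them at the omega end. Cyp4a10 and Cyp4a14 encode omega-hydroxylases and are among the most responsive targets of this receptor in rodent liver and kidney, whereas Cyp4b1 is a related enzyme of the same family.

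The 4 libraries held 9878776 to 12921925 counts, and 49.5% to 61.5% of them came from genes of the mitochondrial genome. Zbp1 had 94 and 125 counts in the WT pair against 18 and 0 in the Zbp1-KO pair, a log2 difference of -3.64 ± 0.89 (adjusted p = 0.999, edgeR), so the labels and the deleted gene pointed the same way. Kidney identity was clear, as 13 proximal tubule markers summed to 14020 and 10780 CPM (the count scaled to the size of the library) in the WT pair and 13560 and 12500 CPM in the Zbp1-KO pair, with Kap, an abundant proximal tubule transcript, supplying 60.6% of the sum. Liver also expresses the Cyp4a genes strongly. Here 7 hepatocyte markers summed to 31.5 and 16.0 CPM in the WT pair and 17.25 and 22.3 CPM in the Zbp1-KO pair. Cyp2c29, 1 of the 7, had no count. Of the 6 tested, WT 1 was above WT 2 for 4, and Zbp1-KO 2 above Zbp1-KO 1 for 5. The part of liver RNA in the level of the Cyp4a genes was not tested. Striated muscle markers summed to at most 0.257 CPM. The labels name kidney but not the part of it that was sampled. Fewer cells of a type, less RNA per cell and a different part sampled cannot be told apart. Nothing in the labels said whether the libraries of a genotype came from separate mice, so the p-values below measure only the spread between these samples.

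The 3 P450 genes lie together on chromosome 4 of the mouse (GRCm38, gene positions from GENCODE M21). Cyp4a14 occupies chr4:115486200-115496142 on the minus strand, Cyp4a10 chr4:115518264-115533649 on the plus strand and Cyp4b1 chr4:115624725-115647723 on the minus strand, with Cyp4a31 between the last pair. Because reads were counted only where they mapped to a single place, near-identical copies could have lost reads. A coding stretch of 60 bases spanning exons 11 and 12, which encodes the haem-binding region of the enzymes, shows how alike the copies are. It is taken from the centre of the longest run of Cyp4a10 sequence that other genes share, and is printed as in the GENCODE M21 transcripts, with capitals where a base differs from Cyp4a10.
Cyp4a10: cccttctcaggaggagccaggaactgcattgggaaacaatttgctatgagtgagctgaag
Cyp4a31: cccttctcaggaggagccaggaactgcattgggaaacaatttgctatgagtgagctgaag
Cyp4a32: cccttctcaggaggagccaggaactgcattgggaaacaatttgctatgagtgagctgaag
Cyp4a14: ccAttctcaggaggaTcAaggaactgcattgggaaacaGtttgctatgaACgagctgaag
In the genome this stretch runs, with an intron inside it, from chr4:115529499-115532570 for Cyp4a10, chr4:115574947-115577975 for Cyp4a31 and chr4:115614877-115621473 for Cyp4a32, all on the plus strand, and chr4:115487272-115489808 on the minus strand for Cyp4a14. Cyp4a31 and Cyp4a32 match Cyp4a10 at every base of it, whereas Cyp4a14 differs at 6 of the 60.

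Over whole transcripts, Cyp4a10 was 95.7% identical to Cyp4a31 and 75.2% identical to Cyp4a14. Windows of 150 bases, the length of 1 read, were found in a second gene for 4.34% of the Cyp4a10 transcript and 4.19% of Cyp4a31. For Cyp4a14, Cyp4b1 and the 5 other members, none of the windows occurred in a transcript of another gene. The counts of Cyp4a14 and Cyp4b1 were thus open to little mix-up with relatives, and those of Cyp4a10 and Cyp4a31 to some.

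Levels of the 8 genes differed widely when set per kilobase of exon. The length used was that of all annotated exons of a gene merged. It was 2109 bases for Cyp4a10, 3913 for Acadm and 7642 for Cpt1a. The longest protein-coding transcripts of these genes have 2109, 2047 and 4317 bases. The places of Acadm and Cpt1a in the order thus depend on the length chosen, and Acadm would rank above Cyp4a10 by transcript length. With the merged exons, Cyp4a10 stood highest at a mean of 71.3 CPM per kb (54.3 to 90.5 over the 4 libraries). Acadm followed at 60.8 (43.0 to 73.8). Ehhadh at 20.9 (17.4 to 26.6) and Cyp4a14 at 19.1 (9.98 to 28.3) came next. Cpt1a at 8.42 (6.38 to 9.20), Cyp4b1 at 8.22 (4.87 to 12.1) and Pdk4 at 5.10 (2.77 to 8.91) were lower, and Ppara at 0.663 (0.192 to 1.41) was the lowest. Overlap between genes was read with the merged exons only. The libraries of Cyp4a10 and Acadm overlapped, as did those of Ehhadh and Cyp4a14, of Cyp4a14 and Cyp4b1, and of Cpt1a, Cyp4b1 and Pdk4. Those of Acadm and Ehhadh, of Cyp4a14 and Cpt1a, and of Pdk4 and Ppara did not overlap.

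**Figure D1:**
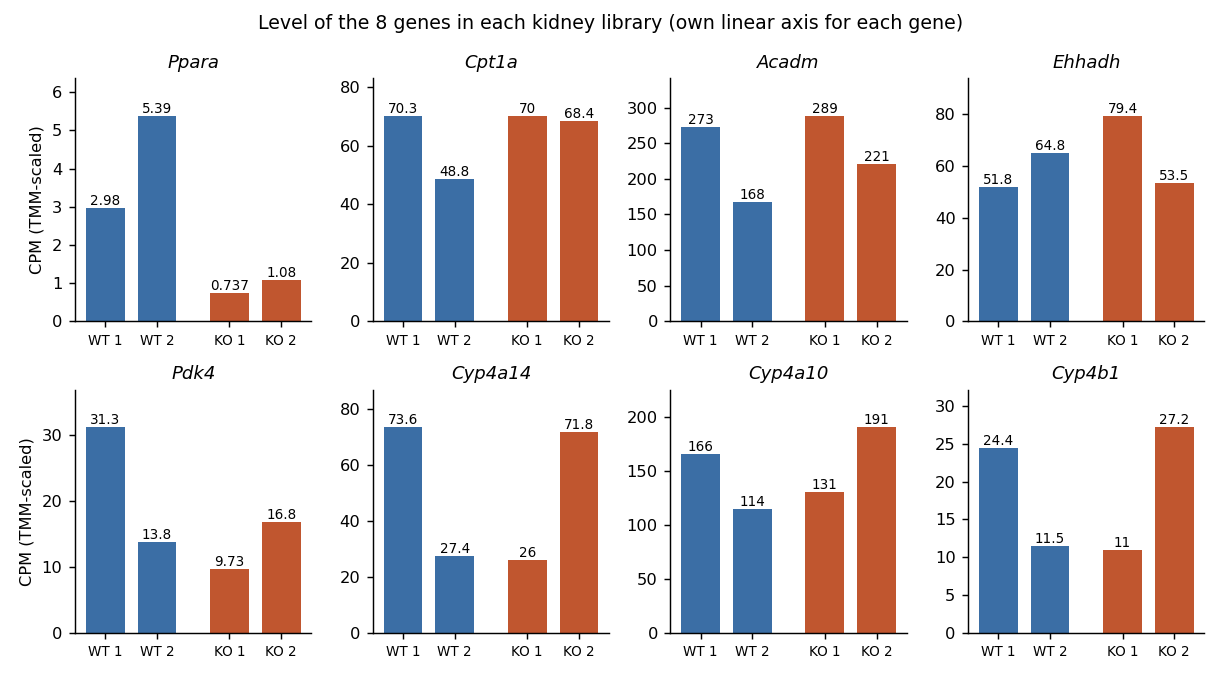
Level of each of the 8 genes in the 4 kidney libraries, as bars in CPM on a linear axis from 0 of its own for each gene (blue, WT; orange, Zbp1-KO). Ppara was below 1.1 CPM in both Zbp1-KO libraries and above 2.9 CPM in both WT libraries, whereas Cyp4a14 was near 72 to 74 CPM in WT 1 and Zbp1-KO 2 and near 26 to 27 CPM in WT 2 and Zbp1-KO 1.

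Ppara, which encodes the receptor, was the member that differed most between genotypes. Its counts were 37 and 63 in WT 1 and WT 2 and 10 in each Zbp1-KO library, which correspond to 2.98 and 5.39 CPM against 0.737 and 1.08 CPM. Both Zbp1-KO libraries lay below both WT libraries, and the mean was 4.18 ± 1.71 CPM for WT (SD, n = 2) and 0.907 ± 0.240 CPM for the knockout (SD, n = 2). On the log2 scale the difference was -2.20 ± 0.82 (SE), with unadjusted p = 0.0199 and adjusted p = 0.999 in edgeR's quasi-likelihood test (Benjamini-Hochberg over 14908 genes). The lower level of Ppara did not pass the test. The difference ran the same way whichever library was left out, between -2.57 and -1.71, and its adjusted p was 0.367 to 1 over all alternatives. With only 10 counts in each Zbp1-KO library, its level there was measured coarsely.

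Among all 14908 genes tested, 2 (0.0134%) passed an adjusted p of 0.05 in either direction, and neither is an oxidation gene. None of the 7 members given a p passed. At an unadjusted p under 0.05, 1 of those 7, Ppara, was lower in Zbp1-KO and none was higher, where 1.97% of all genes were lower and 1.91% higher. Ppara was also the only one of the 8 whose genotypes did not overlap. Such separation was common, as the libraries of the genotypes did not overlap for 16% of all genes in the higher and 16.3% in the lower direction.

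Immediate-early response genes, which are induced quickly when tissue is disturbed, also differed between genotypes. Their summed level was 554 and 217 CPM in WT and 120 CPM in each Zbp1-KO library, with 9 of 11 tested genes lower at an unadjusted p under 0.05 and none passing the adjusted p. Adipocyte markers went the other way, at 609 and 590 CPM in the WT pair and 1012 and 675 CPM in the Zbp1-KO pair. Lpl supplied 78.2% of that sum, and without it the values were 83.9 and 113.6 CPM against 238.8 and 192.7 CPM. At an unadjusted p under 0.05 (edgeR), 6 of 8 tested genes were higher. Cfd, which encodes complement factor D, was also past the adjusted p. Pparg was the 1 of the 8 with a difference below 0, at -0.41. Of all genes tested, 1.97% were lower and 1.91% higher at that unadjusted p. The part of either list in the level of Ppara was not tested.

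The other receptors and cofactors gave no comparable difference. Esrra, an orphan receptor that drives mitochondrial genes, was the highest of them at 107 and 116 CPM in the WT pair and 95.5 and 111 CPM in the Zbp1-KO pair. Ncor1, a corepressor, stood at 60.1 to 67.4 CPM in all 4 libraries. Pparg, the fat cell member of the PPAR family, was at 3.22 and 3.59 CPM in the WT pair and 3.24 and 1.83 CPM in the Zbp1-KO pair, a log2 difference of -0.41 ± 0.69. Rxrg, a retinoid X receptor, had 0 and 25 counts in the WT pair against 0 and 9 in the Zbp1-KO pair, so its fitted difference of -1.19 ± 1.91 rested on 1 library of each genotype. Of 15 tested genes in this group, 1 (Ppara) reached an unadjusted p under 0.05 and none passed after adjustment.

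Cpt1a encodes the carnitine palmitoyltransferase that sets the rate of fatty acid entry into mitochondria. It was at 70.3 and 48.8 CPM in the WT pair and at 70.1 and 68.4 CPM in the Zbp1-KO pair. The Zbp1-KO values fell between the WT values, so that the genotypes overlapped, and the log2 difference was 0.22 ± 0.21 (unadjusted p = 0.328, edgeR). The rest of the carnitine shuttle was as flat. Crat, which moves acetyl groups onto carnitine, and Cpt2, the inner membrane partner of Cpt1a, differed by -0.11 ± 0.19 and 0.00061 ± 0.20 on the log2 scale, and Acacb, which makes the malonyl-CoA that inhibits Cpt1a, by 0.31 ± 0.31.

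Acadm encodes the medium-chain acyl-CoA dehydrogenase of mitochondrial beta-oxidation. Its level was 273 and 168 CPM in the WT pair and 289 and 221 CPM in the Zbp1-KO pair, with the lower value of each genotype in the second library. The genotypes overlapped, and the log2 difference was 0.21 ± 0.24 (unadjusted p = 0.396, edgeR). Within mitochondrial beta-oxidation, 24 genes were tested and none passed. Acads, the short-chain counterpart of Acadm, was at 35.7 and 30.2 CPM in the WT pair and 20.4 and 21.8 CPM in the Zbp1-KO pair, a log2 difference of -0.65 ± 0.23 with unadjusted p = 0.0153 and adjusted p = 0.999 (edgeR). Acad12, another acyl-CoA dehydrogenase, gave 0.40 ± 0.28, and the abundant Etfb and Acadl, an electron carrier subunit and the long-chain dehydrogenase, gave 0.048 ± 0.18 and 0.19 ± 0.20.

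Ehhadh encodes the bifunctional enzyme of peroxisomal beta-oxidation. It stood at 51.8 and 64.8 CPM in the WT pair and 79.4 and 53.5 CPM in the Zbp1-KO pair. The highest value came from Zbp1-KO 1 and the lowest from WT 1, with the remaining libraries overlapping, and the log2 difference was 0.19 ± 0.23 (unadjusted p = 0.417, edgeR). Of 23 tested peroxisomal genes none passed the adjusted p, and 1, Crot, reached an unadjusted p under 0.05. Crot, which attaches shortened fatty acids to carnitine for export from peroxisomes, was at 59.3 and 46.4 CPM in the WT pair and 78.1 and 79.2 CPM in the Zbp1-KO pair, a log2 difference of 0.57 ± 0.20 (unadjusted p = 0.0135, adjusted p = 0.999, edgeR). Acox2, a branched-chain and bile acid oxidase, differed by -0.47 ± 0.23, and the abundant Ech1 and Scp2 by 0.018 ± 0.20 and 0.11 ± 0.17.

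Pdk4 encodes the kinase that shuts pyruvate dehydrogenase and so spares glucose while fat is burned. Its level was 31.3 and 13.8 CPM in the WT pair and 9.73 and 16.8 CPM in the Zbp1-KO pair. WT 1 stood above the others, and Zbp1-KO 2 exceeded WT 2, so the genotypes overlapped. The log2 difference was -0.77 ± 0.39 (unadjusted p = 0.0704, adjusted p = 0.999, edgeR), and without WT 1 it was -0.068. Pdk4 is thus a gene whose genotype difference depended on 1 library.

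Other targets of PPAR-alpha and fuel genes were likewise without a call in 26 tested genes. Txnip, a regulator of glucose uptake, and Ucp2, a mitochondrial carrier, were the most abundant and differed by -0.022 ± 0.21 and -0.26 ± 0.19 on the log2 scale. Plin5, a lipid droplet protein, gave 0.86 ± 1.05 at levels of 0.770 to 2.58 CPM. Aqp3, a water and glycerol channel of the collecting duct, was at 71.4 and 74.4 CPM in the WT pair and 59.1 and 37.9 CPM in the Zbp1-KO pair, a log2 difference of -0.58 ± 0.23 (unadjusted p = 0.0247, adjusted p = 0.999, edgeR). Collecting duct markers, of which Aqp3 is one, summed to 1097 and 1239 CPM in the WT pair and 894 and 678 CPM in the Zbp1-KO pair. Aqp2 supplied 82.5% of that sum. Without Aqp2, and with Aqp3 still in it, the sum was 193.5 and 177.5 CPM against 164.6 and 147.7 CPM. Of the 6 tested markers 5 had a difference below 0, Slc26a4 among them at -0.03, and Slc4a1 was at 0.08. The part of these markers in the level of Aqp3 was not tested.

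Fatty acid uptake and activation genes held the highest single level of the pathway. Slc27a2, a fatty acid transporter and acyl-CoA synthetase of the proximal tubule, stood at 1437 and 1104 CPM in the WT pair and 1059 and 1299 CPM in the Zbp1-KO pair, a log2 difference of -0.11 ± 0.20. Acsl1, an acyl-CoA synthetase, gave 0.077 ± 0.22, and Acsl4, its relative that prefers arachidonic acid, -0.43 ± 0.33. Fabp1, a fatty acid binding protein, was at 8.51 CPM in Zbp1-KO 2 and between 1.88 and 3.22 CPM in the other libraries, a difference of 1.03 ± 0.74 that came from a single library.

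**Figure D2:**
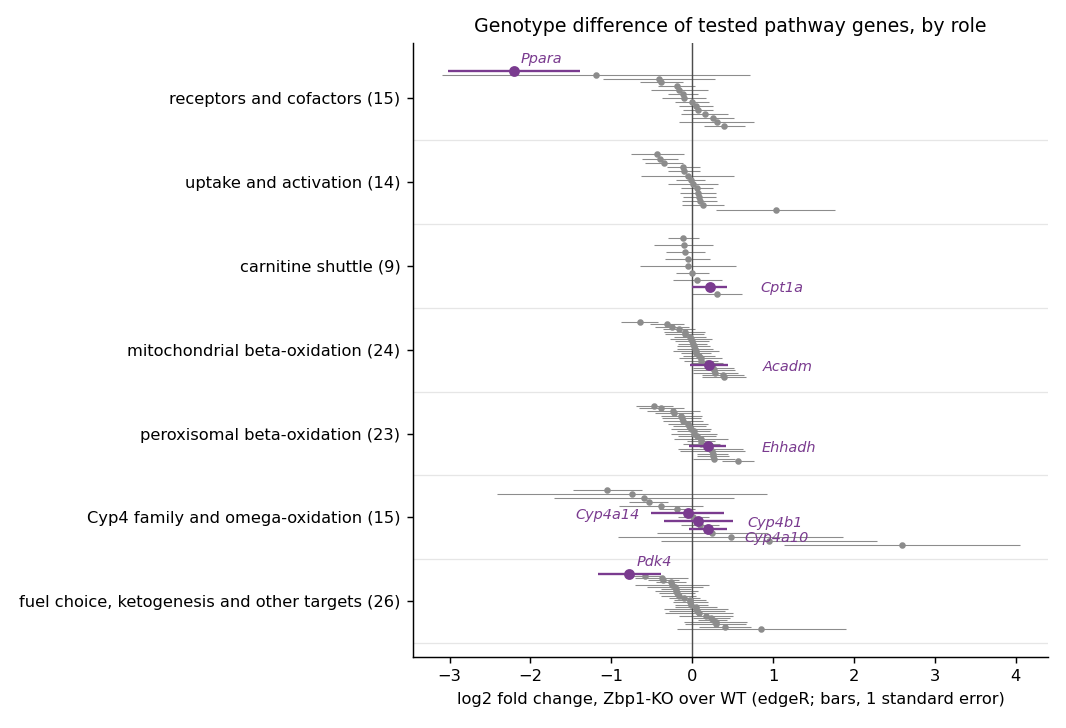
Log2 fold change of Zbp1-KO over WT for the 126 tested genes of the pathway list, grouped by role with the number tested in parentheses; points are edgeR estimates, bars 1 standard error, and the 8 genes are in purple and named. Ppara lies farthest left of the named genes at -2.20, Pdk4 is at -0.77, and the other 6 lie between -0.06 and 0.22.

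The wider pathway list held 141 genes of receptors, uptake, carnitine shuttle, mitochondrial and peroxisomal oxidation, Cyp4 enzymes and fuel choice. Of these, 126 had counts enough to be tested, and the 15 that did not included Fgf21, Cpt1b and Creb3l3; 7 of the 15 had no count in any library. None of the 126 passed an adjusted p of 0.05 in edgeR's quasi-likelihood test, in edgeR's exact test or in DESeq2. At an unadjusted p under 0.05, 1 gene (0.794%) was higher and 5 (3.97%) were lower in Zbp1-KO, the latter being Ppara, Acads, Cyp4f16, Aldh3a2 and Aqp3, where all genes gave 1.91% and 1.97%. Genotypes did not overlap for 17 genes (13.5%) in the higher and 16 (12.7%) in the lower direction, against 16% and 16.3% of all genes. The median log2 difference was 0.0066, where that of all 14908 genes was -0.0061. The median and the shares without overlap were thus near those of all genes, while the share lower at an unadjusted p rested on 5 genes.

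The P450 members Cyp4b1 and Cyp4a10 varied more within a genotype than between genotypes. So did Cyp4a14, which had been singled out for that split. Overlap of the genotypes was common, as it held for 10098 of the 14908 genes tested. Cyp4a14 was at 73.6 CPM in WT 1, 27.5 CPM in WT 2, 26.0 CPM in Zbp1-KO 1 and 71.9 CPM in Zbp1-KO 2, from 915, 321, 352 and 667 counts. The high libraries were thus 1 of each genotype, 2.68-fold above the low one in WT and 2.77-fold in Zbp1-KO. Group means of 50.5 ± 32.6 CPM and 48.9 ± 32.5 CPM (SD, n = 2 each) gave a log2 difference of -0.06 ± 0.45. Leaving out a library moved that value to as low as -0.97 (without Zbp1-KO 2) and as high as 0.82 (without WT 1).

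Cyp4b1 was high in the same library of each pair, at 24.4 and 11.5 CPM in the WT pair and 11.0 and 27.3 CPM in the Zbp1-KO pair. The high library was 2.13-fold above the low one in WT and 2.48-fold in Zbp1-KO, while the log2 difference between genotypes was 0.08 ± 0.43 (unadjusted p = 0.859, edgeR). Cyp4a10 had the same direction within each pair with a smaller spread, at 166 and 114 CPM in the WT pair and 131 and 191 CPM in the Zbp1-KO pair. Its ratios were 1.45 in WT and 1.46 in Zbp1-KO, and its genotype difference was 0.20 ± 0.23 (unadjusted p = 0.412, edgeR).

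Cyp4a31, the close relative of Cyp4a10, was at 115 and 84.9 CPM in the WT pair and 85.5 and 129 CPM in the Zbp1-KO pair, a log2 difference of 0.10 ± 0.23. Summed over all 8 Cyp4a genes, the level was 355 and 228 CPM in the WT pair and 244 and 394 CPM in the Zbp1-KO pair. Reads that fit more than 1 copy were not counted, and the sum does not bring them back. Within each pair the sum had the direction seen in Cyp4a14, and the log2 ratio of Zbp1-KO over WT was 0.13, or 0.16 without Cyp4a14. Cyp4a12a and Cyp4a12b, enzymes known from male kidney, were low in these females. Cyp4a12a was at 0.0804 and 0.342 CPM in the WT pair and 1.55 and 1.08 CPM in the Zbp1-KO pair, from 1, 4, 21 and 10 counts, so that the genotypes did not overlap, and the log2 difference was 2.59 ± 1.46 (unadjusted p = 0.101, adjusted p = 0.999, edgeR). Cyp4a12b was at 0 to 0.969 CPM. As 25.6% of the 150-base windows of Cyp4a12a occur in Cyp4a12b too, reads of both could have been lost, and their levels are uncertain. Cyp4a29 and Cyp4a30b had no count, and Cyp4a32 had 2 counts in each WT library and none in Zbp1-KO.

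Cyp4f genes and Cyp4v3, which act on leukotrienes and longer fatty acids, did not share one direction within the pairs. Cyp4f13, the most abundant, was level at 44.1 and 48.4 CPM in the WT pair and 45.4 and 48.0 CPM in the Zbp1-KO pair. Cyp4f16 was at 12.4 and 7.70 CPM in the WT pair and 4.35 and 5.39 CPM in the Zbp1-KO pair, a log2 difference of -1.05 ± 0.43 (unadjusted p = 0.0314, adjusted p = 0.999, edgeR). Cyp4f14, Cyp4f15, Cyp4f17, Cyp4f18 and Cyp4v3 were below 8 CPM in every library, and their differences lay between -0.59 and 0.95 with standard errors of 0.52 to 1.39. Aldh3a2, which turns fatty aldehydes from omega-oxidation into acids, differed by -0.54 ± 0.24 (unadjusted p = 0.0468, adjusted p = 0.999, edgeR), and Por, the electron donor of these P450 enzymes, by -0.18 ± 0.22.

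**Figure D3:**
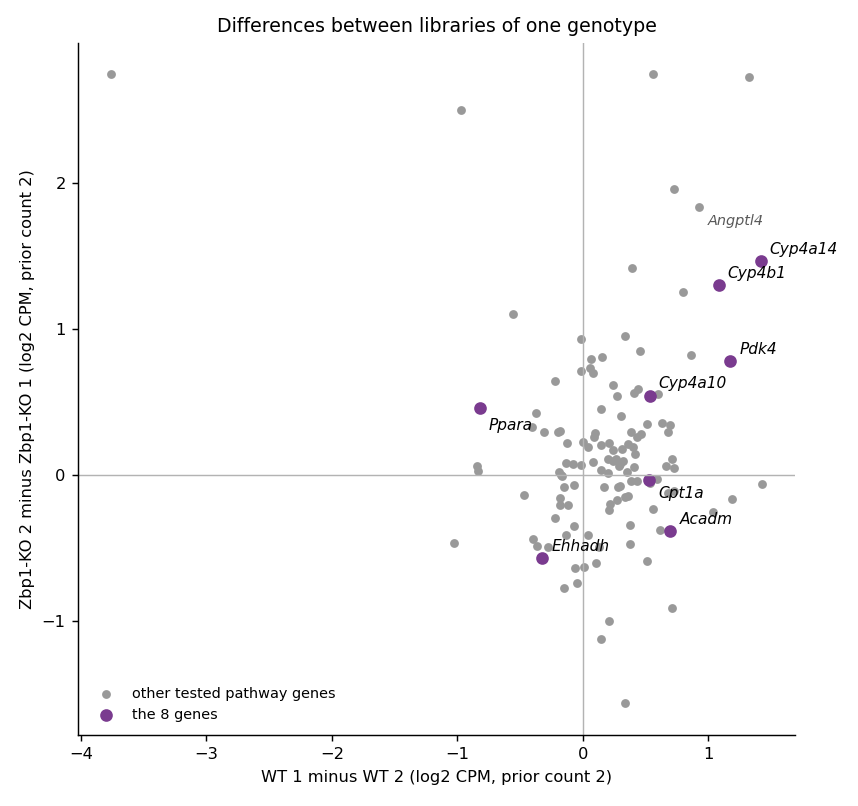
Each point is a tested gene of the pathway list, placed by the difference in log2 CPM between the WT libraries (horizontal) and between the Zbp1-KO libraries (vertical, second minus first), with a prior count of 2; the 8 genes are in purple. Cyp4a14 and Cyp4b1 lie far up and to the right, past 1 on both axes, Cyp4a10 lies near 0.5 on both, and Acadm, Cpt1a, Ehhadh and Ppara lie elsewhere.

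Apart from Cyp4a14, which was singled out for such differences, libraries of one genotype differed past 2-fold for 2 of 7 genes in WT (Cyp4b1 and Pdk4) and 1 of 7 in Zbp1-KO (Cyp4b1). Over all genes tested the shares were 11.8% in WT and 18.3% in Zbp1-KO, and over the pathway list 9 genes (7.14%) and 13 genes (10.3%). In the pathway list WT 1 exceeded WT 2 for 88 of 126 genes (69.8%) and Zbp1-KO 2 exceeded Zbp1-KO 1 for 76 (60.3%), where all genes gave 50.3% and 49.8%. Angptl4, a secreted lipase inhibitor and PPAR target, was at 60.4 and 31.7 CPM in the WT pair and 17.0 and 61.1 CPM in the Zbp1-KO pair. Angptl4 was named after its values were seen. Pdk4 had WT 1 above WT 2 and Zbp1-KO 2 above Zbp1-KO 1 as well, whereas Acadm, Cpt1a, Ehhadh and Ppara did not.

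**Figure D4:**
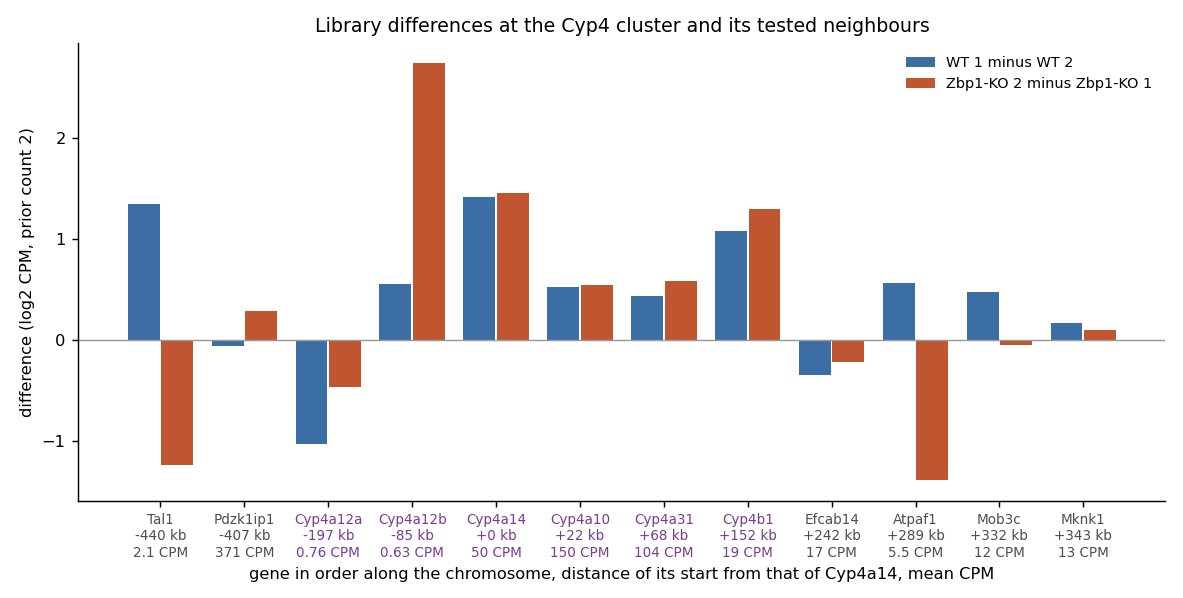
Bars give the difference in log2 CPM (prior count 2) between the libraries of each genotype for the 12 tested genes whose start lies within 500 kb of that of Cyp4a14, in order along the chromosome with the distance and the mean CPM under each name (purple names, Cyp4 genes). Cyp4a14, Cyp4a10, Cyp4a31, Cyp4b1 and the scarce Cyp4a12b have both bars above 0.4, whereas Cyp4a12a and the 6 genes outside the family do not.

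The neighbourhood of Cyp4a14 on chromosome 4 was looked at in the same way. Of the 12 tested genes that start within 500 kb of Cyp4a14, itself included, 6 were Cyp4 genes, 4 of them above 10 CPM. Cyp4a14 is 1 of these 4 and was singled out for its split, so it does not count here. The others, Cyp4a10, Cyp4a31 and Cyp4b1, all had WT 1 above WT 2 and Zbp1-KO 2 above Zbp1-KO 1. Of the 2 scarce ones, Cyp4a12b had these directions and Cyp4a12a had the opposite in both pairs. Among the 6 neighbours outside the family, WT 1 was the higher WT library for 4, and Zbp1-KO 2 the higher Zbp1-KO library for 2. Both held for 1 of the 6, Mknk1, at 14.15 and 12.57 CPM in the WT pair and 12.09 and 13.03 CPM in the Zbp1-KO pair. Over all genes tested, WT 1 was above WT 2 for 50.3% and Zbp1-KO 2 above Zbp1-KO 1 for 49.8%. The share of all genes with both directions was not counted. Pdzk1ip1, the abundant neighbour on one side, was at 370 and 385 CPM in the WT pair and 328 and 402 CPM in the Zbp1-KO pair, and Efcab14, the nearest on the other side, at 15.4 and 19.6 CPM in the WT pair and 18.5 and 15.9 CPM in the Zbp1-KO pair. Neither of these had both directions of Cyp4a14. The neighbours were named after their values were seen.

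Genes most like Cyp4a14 were sought among all tested genes with a mean of at least 5 CPM, by the root mean square difference of centred log2 CPM over the 4 libraries. The 4 closest were Hp, which encodes the haemoglobin scavenger haptoglobin, the globin genes Hba-a1 and Hbb-bt, and A4galt, a glycosyltransferase, with differences of 0.074 to 0.13. Cyp4b1 was the 7th closest at 0.14, and Slc25a42, a mitochondrial coenzyme A carrier of the pathway list, the 20th. Hba-a1 was at 1237 and 419 CPM in the WT pair and 376 and 1059 CPM in the Zbp1-KO pair, and Hp at 17.8 and 5.82 CPM in the WT pair and 5.90 and 15.3 CPM in the Zbp1-KO pair. A list of 6 red blood cell genes, put together after these values were seen, summed to 2553 and 820 CPM in the WT pair and 820 and 2122 CPM in the Zbp1-KO pair, with Hba-a1 supplying 48.9%. Hba-a1 and Hba-a2 are near-identical copies, so unique mapping could have lost reads of both, and the sum of the list does not bring these back. The red blood cell sum was thus high in the libraries in which Cyp4a14 was high, and its part in the level of Cyp4a14 was not tested. As a description over 4 libraries, this likeness carries no p.

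**Figure D5:**
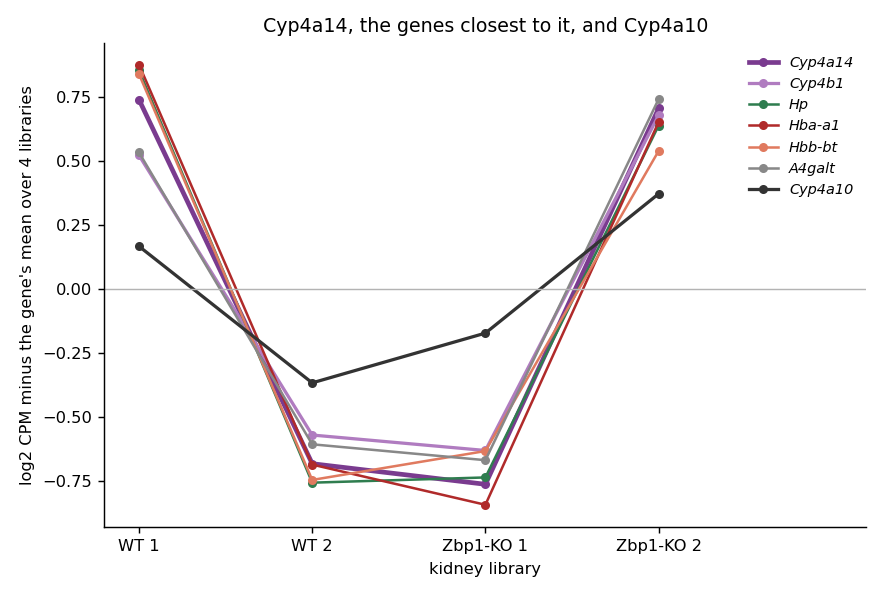
Log2 CPM of each gene minus its mean over the 4 kidney libraries, for Cyp4a14, Cyp4b1, Cyp4a10 and the 4 genes closest to Cyp4a14; lines only join the values of one gene. All of them are above their mean in WT 1 and Zbp1-KO 2 and below it in WT 2 and Zbp1-KO 1, with Cyp4a10 showing the smallest spread.

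Other values were set beside Cyp4a14 in the same way. Of the 13 proximal tubule markers, WT 1 was above WT 2 for 7 and Zbp1-KO 2 above Zbp1-KO 1 for 11. Without Kap, which led their sum, the other 12 came to 5200 and 5219 CPM in the WT pair. In the Zbp1-KO pair they came to 4154 and 5476 CPM, so that Zbp1-KO 1 was lowest. A separate list for the S3 segment of the proximal tubule had 6 tested genes. WT 1 was above WT 2 for 6 of them, but Zbp1-KO 2 above Zbp1-KO 1 for 1. The part of either list in the level of Cyp4a14 was not tested. The share of mitochondrially encoded counts was 57.5% and 61.5% in WT and 49.5% and 59.5% in Zbp1-KO, so Zbp1-KO 2 was above Zbp1-KO 1 but WT 1 below WT 2. Dbp, a transcription factor whose level swings with the time of day, was at 4.26 and 0.855 CPM in the WT pair and 0.516 and 8.08 CPM in the Zbp1-KO pair, high in the libraries in which Cyp4a14 was high. Among the 15 tested genes of the clock list that holds Dbp, WT 1 was above WT 2 for 6 and Zbp1-KO 2 above Zbp1-KO 1 for 10. Dbp was chosen after its values were seen, and its part in the level of Cyp4a14 was not tested.

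Promoter sequence of the members was compared with the element that PPAR-alpha and its partner bind, built of the letters AGGTCA repeated with 1 base between the copies. RefSeq (GRCm38.p6) gave windows for 6 of the 8 genes, all but Cyp4a14 and Cyp4a10, and the 250 bases before each start were searched on both strands. AGGTCA was found in 2 of the 6, Cpt1a and Acadm, and in 14% of all 32841 windows. The Acadm window had the best match to the whole element, at 9 of 12 letters, which 21.3% of all windows reached. The other 5, Ppara among them, matched at 8 of 12, as did 74.5% of all windows or better. Both windows with AGGTCA are shown on the strand of the gene with that match in capitals, which here reads as its reverse complement, for Cpt1a chr19:3323051-3323300 (plus strand) and for Acadm chr3:153944644-153944893 (minus strand).
Cpt1a: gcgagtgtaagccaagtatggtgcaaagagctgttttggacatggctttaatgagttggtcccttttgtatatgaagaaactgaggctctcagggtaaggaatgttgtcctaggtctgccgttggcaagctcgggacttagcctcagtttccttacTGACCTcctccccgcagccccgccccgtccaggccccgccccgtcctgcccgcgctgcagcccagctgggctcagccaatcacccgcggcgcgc
Acadm: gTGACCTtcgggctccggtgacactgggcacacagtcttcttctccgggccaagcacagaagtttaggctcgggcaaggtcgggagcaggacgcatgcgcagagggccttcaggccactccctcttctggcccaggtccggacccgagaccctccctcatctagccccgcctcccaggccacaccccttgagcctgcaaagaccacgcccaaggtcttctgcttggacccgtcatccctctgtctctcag
The match starts 94 bases before the start of Cpt1a and 249 bases before that of Acadm. Neither gene differed between genotypes in these libraries beyond the spread between replicates.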

How the data were processed

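From kidney RNA, 2 WT and 2 Zbp1-KO libraries, grouped by GEO's labels, were sequenced after polyA selection in pairs of 150-base reads. The authors mapped the reads to mm10 with HISAT2 and counted uniquely mapped pairs per gene with featureCounts (versions not given in the sources used here; nor is whether strand was used in counting). The deposited values are raw counts per Ensembl gene, 9878776 to 12921925 per library. Symbols and positions came from GENCODE M21, which matched 54495 of 54532 genes, leaving 37 unnamed. In edgeR 4.0.16 (R 4.3.3), genes passing filterByExpr (minimum count 10, total 15) were scaled by TMM and tested between genotypes with the two-sided quasi-likelihood test, with Benjamini-Hochberg adjustment over 14908 genes and 0.05 as threshold. CPM values are TMM-scaled, fold changes use a prior count of 0.125, and differences between libraries one of 2. The fit was tested on simulated data. With 2 libraries against 2, an exact permutation test of 1 gene cannot go below p = 0.333, so none was run. Replicate numbers come from the labels, which do not say what they share. DESeq2 1.42.0 and edgeR's exact test were alternatives (the study names edgeR's negative binomial test after TMM). Sequences were handled in Python 3.11.15 with Biopython 1.88.

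The members and gene lists were chosen with earlier results of these data known. Besides the members, the text names the tested Cyp4 genes and, in each role group, the 2 most abundant other genes and the 2 with the largest differences, plus genes past an unadjusted p of 0.05 in the pathway list and others stated to be chosen after their values were seen. The 4 tested genes with a mean of at least 5 CPM closest to Cyp4a14 over the libraries are named too; a further gene that the rule names is not reported here.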

Additional observations from a re-analysis of the deposited data

How the results depend on the processing

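No alternative gave a call among the 126 tested genes of the pathway list, and no member passed the threshold under any. With TMM replaced by DESeq2-type or upper quartile factors, the members' log2 differences moved by less than the spread between replicates and 2 genes were called. Over all genes, the number called was 41 when genes with any count were kept, 14 in edgeR's exact test, 9 in DESeq2, 4 without mitochondrially encoded genes, and 0 to 37 when 1 library was left out (0 without WT 1, 20 without WT 2, 8 without Zbp1-KO 1, 37 without Zbp1-KO 2; the lone library of a group was assumed to vary like the others). With the replicate block, 11 were called; samples of the same number deviated with a correlation of 0.0040, so the numbers were not taken to pair them. The median of the pathway list ranged from -0.10 (without WT 2) to 0.064 without 1 library. Over the same 4 fits the log2 difference changed sign for Cyp4a10 (-0.11 to 0.48), Cyp4b1 (-0.72 to 0.72), Cpt1a (-0.028 to 0.50), Ehhadh (-0.13 to 0.44), Acadm (-0.10 to 0.59), Cyp4a14 (-0.97 to 0.82) and the Cyp4a sum (-0.26 to 0.48), and kept it for Ppara (-2.57 to -1.71) and Pdk4 (-1.25 to -0.068). The values reversed without 1 library were -0.049 for Cyp4a10, -0.37 for Cyp4b1, -0.028 for Cpt1a and -0.10 for Acadm without WT 2, -0.13 for Ehhadh and -0.0024 for Acadm without Zbp1-KO 1, and -0.11 for Cyp4a10 and -0.72 for Cyp4b1 without Zbp1-KO 2. With 10 counts of Ppara in each Zbp1-KO library, and 2 libraries a genotype, only large differences could be resolved; the cause of the changes was not tested.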
